A study of Homo sapiens with 32 samples.

Results

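The genes described here are 33 genes of amino acid synthesis, one-carbon metabolism and amino acid transport, 21 of them enzymes and 12 of them transporters, out of 60660 rows of a gene count table. They were chosen by symbol from pathway knowledge, with earlier results of these data known, and each symbol matched 1 Ensembl identifier in the table. They were measured by poly(A)-selected, strand-directional RNA-seq in HCT116, a human colorectal carcinoma cell line, treated with tunicamycin, a drug that blocks N-linked glycosylation in the endoplasmic reticulum, or with its solvent DMSO. The questions put to the genes were which of them followed tunicamycin, and whether their levels or their responses differed when IGF2BP3 or IGF2BP2, RNA-binding proteins that attach to mRNAs, had been targeted by CRISPR. All groups carry the same background, HCT116 cells with a tetracycline-inducible OsTIR1 (Tet-OsTIR1-PURO).

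The 6 groups were parental cells in DMSO and in tunicamycin, with 4 libraries each, IGF2BP3 knockout cells in DMSO and in tunicamycin, with 6 libraries each, and IGF2BP2 knockout cells in DMSO and in tunicamycin, with 6 libraries each. The parental libraries came from 2 samples, and each knockout group from 3 single-cell clones (A3, D12 and E4 for IGF2BP3, and B7, F6 and G6 for IGF2BP2), each sequenced as 2 replicates. A3 and E4 share 1 guide RNA and D12 has another, and B7 and F6 share 1 guide RNA and G6 has another. Tunicamycin was used at 5 µg/mL for 4 h in parental and IGF2BP3 knockout cells. For the IGF2BP2 knockout clones the labels used here give no dose or time, so their responses are set beside the others with that limit. The 2 control libraries of clone G6 are named as controls in their titles but as tunicamycin in their treatment field, and were taken as controls.

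Cells make serine from a glycolytic intermediate and pass its side carbon to folate, which carries 1-carbon units in a mitochondrial and a cytosolic branch for purine, thymidylate and methyl group synthesis. Plasma membrane transporters of the SLC families bring in the amino acids that the cell does not make or uses up fast, often as exchangers that trade one amino acid for another. Many of these genes are known targets of ATF4, a transcription factor made more when eIF2α is phosphorylated under endoplasmic reticulum stress or amino acid shortage, and ATF4 with a C/EBP partner binds a composite DNA element near several of them.

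The libraries held 16651438 to 24913021 counts each (median 21441775.5), and levels are given as CPM, the counts scaled to a common library size after TMM normalisation. IGF2BP3 mRNA was 27.6 CPM in IGF2BP3 knockout and 76.5 CPM in parental cells in DMSO (log2 fold change -1.48, edgeR adjusted p = 0.00251), and IGF2BP2 mRNA was 86.3 CPM in IGF2BP2 knockout and 176 CPM in parental cells (log2 fold change -1.02, edgeR adjusted p = 1.39e-05), so that both targeted mRNAs were lower but still present. ATF4 mRNA itself went from 384 to 914 CPM with tunicamycin in parental cells (log2 fold change 1.25, edgeR adjusted p = 1.95e-06), and HSPA5, the endoplasmic reticulum chaperone BiP, from 976 to 9936 CPM. The G6 control libraries held 991 and 821 CPM of HSPA5, near the DMSO means of 904 to 983 CPM. The sum of 5 epithelial markers was 3036 to 5542 CPM in every library, and the sums of 3 haematopoietic and 2 endothelial markers stayed at or below 0.196 and 0.156 CPM. The sum of 3 fibroblast markers was 4.65 to 12.3 CPM, with COL1A1 at up to 12.3 CPM, and its part in the results was not tested. The strand setting of the counting is not given, so reads could be shared where exons overlap a gene on the other strand, as in 27.19% of the exon bases of MTHFD2, 23.41% of SLC1A5 and 19.32% of GOT1. In bulk RNA a change in the number of cells and a change in the RNA per cell cannot be told apart. Nothing in the labels says that replicate libraries came from separate cultures, so the p-values below measure the spread between these libraries, which may be technical.

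RefSeq promoters (GRCh38.p14, 250 bases before to 50 after a start) were at hand for 26 of the 33 genes. Only the 250 bases before a start were searched. The core of the C/EBP-ATF element, searched as TTNCATCA on both strands, lay in a promoter of 6 of these 26 genes, against 3.89% of all 27305 genes, and in 7 of their 47 promoters, against 3.14% of all 35116 promoters. The 7 include the same MTHFD1L site counted in 2 overlapping promoters. The 6 matches are shown because they hold the core of the element named above. Each stretch runs 5′ to 3′ on the gene's strand, and capitals mark the match, which reads TGATGNAA where it is on the opposite strand.
ASNS, chr7:97872458-97872487, minus strand: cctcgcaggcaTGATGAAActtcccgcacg
MTHFD1L, chr6:150866346-150866375, plus strand: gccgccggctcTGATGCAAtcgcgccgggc
GOT1, chr10:99430804-99430833, minus strand: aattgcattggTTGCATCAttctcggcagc
SLC1A5, chr19:46784893-46784922, minus strand: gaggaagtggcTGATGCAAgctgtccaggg
SLC1A3, chr5:36596357-36596386, plus strand: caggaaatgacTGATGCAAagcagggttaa
BCAT1, chr12:24949131-24949160, minus strand: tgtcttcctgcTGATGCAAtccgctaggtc
The ASNS match lies 68 to 61 bases before the RefSeq start and that of GOT1 198 to 191 bases before it. The SLC1A3 promoter belongs to a RefSeq start upstream of the gene's start in GENCODE. The whole stretches of ASNS, MTHFD1L, GOT1 and BCAT1 lie within exons that GENCODE gives to the same gene. So do 13 of the 30 bases of SLC1A5. In 5 of the 6 genes, all but GOT1, the match is on the strand opposite to the gene. As the values below show, ASNS, MTHFD1L, GOT1 and SLC1A5 rose with tunicamycin, SLC1A3 was not higher in any genotype, and BCAT1 had almost no counts. Among the 16 genes that rose in all 3 genotypes and had a promoter, 4 held the core. The endoplasmic reticulum stress element (CCAAT, any 9 bases, CCACG) was found in 0 of the 47 promoters and in 0.074% of all promoters. TGACGTGG, an unfolded protein response element, was found in 2 of the 47, those of ALDH18A1 and GOT2, and in 0.612% of all promoters. A match is a description of the letters only.

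Tunicamycin raised most of the measured genes, which were chosen with earlier results of these data known. In parental cells 21 of the 31 tested genes were higher and 1 was lower, while 25.9% of all 14828 genes tested were called (12.1% higher and 13.8% lower). In IGF2BP3 knockout 21 were higher and 2 lower, against 32% of all genes called (15.3% higher and 16.8% lower), and in IGF2BP2 knockout 22 were higher and 3 lower, against 38.2% (18.2% higher and 20.1% lower). The median log2 fold change of the tested genes was 0.82, 0.81 and 0.76 in the same order, and that of all genes -0.0085, -0.0075 and -0.011. Calls are at an adjusted p under 0.05, where p-values from the quasi-likelihood test of edgeR were adjusted over all genes by the Benjamini-Hochberg method. The counts of lower genes fell to 0 in parental cells without replicate 1 of sample 1, to 1 in IGF2BP3 knockout without clone D12 and to 1 in IGF2BP2 knockout without clone B7. CBS, which starts transsulfuration, and BCAT1, a cytosolic branched-chain aminotransferase, had 0 to 2 counts per library and were not tested; CBS has a near-identical copy in the genome build to which its reads could have been assigned.

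**Figure D1:**
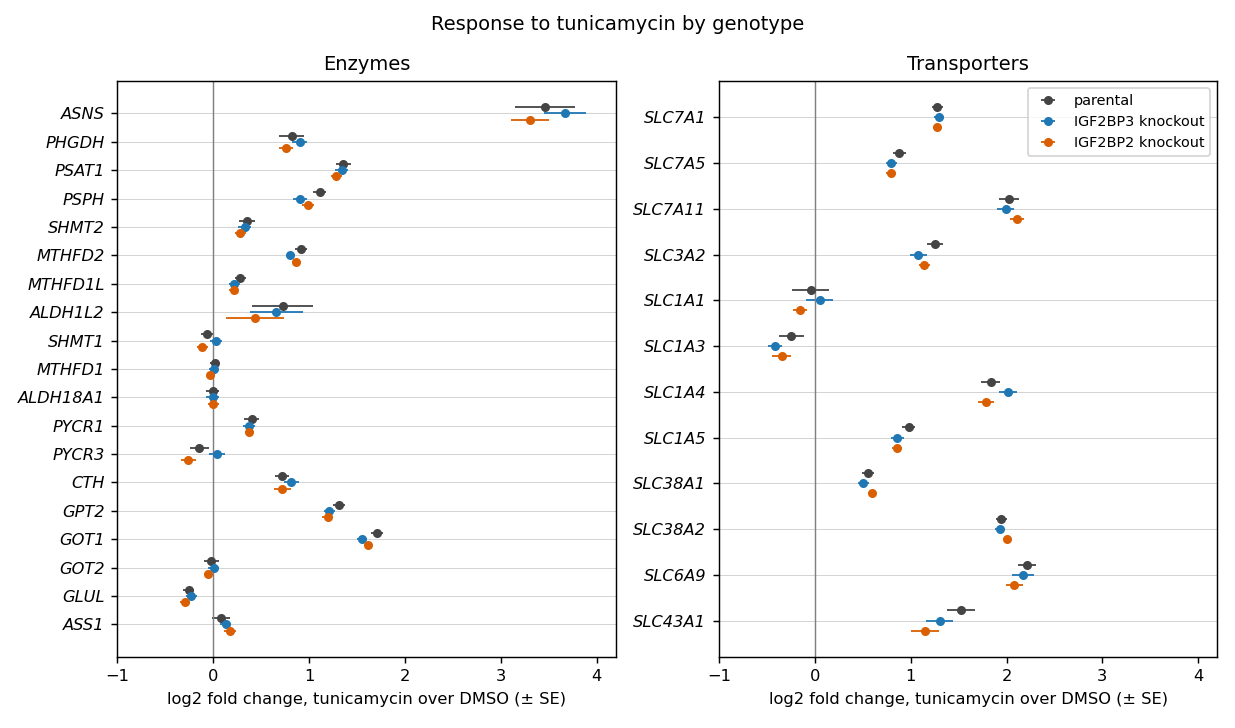
Log2 fold change of tunicamycin against DMSO for the 31 tested genes (rows, ordered by role), with points for parental, IGF2BP3 knockout and IGF2BP2 knockout cells and bars for 1 standard error. The 21 genes that rose lie between 0.22 and 3.67 in each genotype, with ASNS farthest to the right, and GLUL lies left of 0 in each.

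The same 21 genes were higher in all 3 genotypes. They were 11 enzymes, ASNS, PHGDH, PSAT1, PSPH, SHMT2, MTHFD2, MTHFD1L, PYCR1, CTH, GPT2 and GOT1, and 10 transporters, SLC7A1, SLC7A5, SLC7A11, SLC3A2, SLC1A4, SLC1A5, SLC38A1, SLC38A2, SLC6A9 and SLC43A1. GLUL was lower in all 3, and ALDH1L2, SHMT1, MTHFD1, ALDH18A1, GOT2 and SLC1A1 were called in none. PYCR3 was called lower in IGF2BP2 knockout, ASS1 higher in IGF2BP2 knockout, and SLC1A3 lower in both knockouts.

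ASNS, which makes asparagine from aspartate with glutamine as the nitrogen donor, had the largest fold change of the 31 tested genes in each genotype. Parental values are given here and below as replicate 1 of samples 1 and 2, followed by replicate 2 of samples 1 and 2. In parental DMSO its 4 libraries held 0.629 and 0.854 CPM (replicate 1) and 1.26 and 1.37 CPM (replicate 2), and in tunicamycin 8.33 and 7.79 CPM (replicate 1) and 14.7 and 14.0 CPM (replicate 2). Every tunicamycin library was above every DMSO library, and in both treatments replicate 2 was higher than replicate 1. The log2 fold change was 3.46 (SE 0.313, edgeR adjusted p = 2.75e-05), and it was 3.44 within replicate 1 and 3.45 within replicate 2. In IGF2BP3 knockout the lowest, median and highest library were at 0.611, 0.908 and 1.37 CPM in DMSO and at 7.58, 11.7 and 16.6 CPM in tunicamycin. In IGF2BP2 knockout they were at 0.754, 1.35 and 1.80 CPM and at 8.63, 14.0 and 16.1 CPM. As counted, these levels were far below those of the serine enzymes. In parental DMSO they were 0.231 CPM per kb of exon for ASNS (chromosome 7, 97852118 to 97872542, minus strand, GRCh38) and 87.0 CPM per kb for PSAT1. The ASNS counts were 14 to 325 per library. Of its exon bases, 44.56% are shared with a gene model on the same strand, ENSG00000284707, whose reads there cannot be told apart from those of ASNS. Reads in the shared bases may be missing from the ASNS counts. Its level and CPM per kb may therefore be too low, and its fold change and rank rest on the reads that were counted. Whether the whole ASNS mRNA changed by as much was not tested.

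All 3 enzymes of serine synthesis rose in each genotype. PHGDH, the entry enzyme that oxidises 3-phosphoglycerate, was at 125, 134, 94.1 and 90.1 CPM in parental DMSO and at 204, 227, 170.2 and 179.6 CPM in tunicamycin. The groups did not overlap, and replicate 1 (the first pair of each) was higher than replicate 2. The log2 fold change was 0.82 (SE 0.131, edgeR adjusted p = 0.0012), with 0.90 in IGF2BP3 and 0.76 in IGF2BP2 knockout. PSAT1, the phosphoserine aminotransferase, stood at 199, 214, 169 and 179 CPM in parental DMSO and at 524, 523, 446 and 455 CPM in tunicamycin. Its log2 fold change was 1.36 (SE 0.0807, edgeR adjusted p = 1.59e-06), with 1.34 and 1.29 in the knockouts. PSPH, the phosphatase that releases serine, was at 39.5, 40.0, 33.4 and 35.4 CPM and then 82.6, 82.9, 77.8 and 76.4 CPM, and its log2 fold changes were 1.11, 0.91 and 0.99 in parental, IGF2BP3 and IGF2BP2 knockout cells. In IGF2BP2 knockout the PHGDH libraries of the treatments overlapped, from 68.8 to 142 CPM in DMSO and from 138 to 216 CPM in tunicamycin.

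Of the one-carbon enzymes, 3 of the 4 mitochondrial ones were higher in each genotype, and SHMT1 and MTHFD1, the 2 cytosolic ones, were not called in any. MTHFD2, the mitochondrial dehydrogenase and cyclohydrolase of 1-carbon folates, was at 304, 314, 270.1 and 281 CPM in parental DMSO and at 597, 571, 515 and 522 CPM in tunicamycin. Its log2 fold change was 0.92 (SE 0.0648, edgeR adjusted p = 5.49e-06) in parental cells and 0.81 and 0.87 in the IGF2BP3 and IGF2BP2 knockouts, and its libraries did not overlap. SHMT2, which splits serine into glycine and a 1-carbon unit in mitochondria, was at 280.3, 278, 232 and 230.4 CPM and then 338, 363, 299 and 305 CPM, a smaller rise of 0.35, 0.33 and 0.28. MTHFD1L, which releases formate from mitochondria, went from 165 to 189.5 CPM in parental DMSO to 205 to 227 CPM in tunicamycin, with log2 fold changes of 0.28, 0.22 and 0.22. SHMT2 libraries overlapped between treatments in both knockouts and MTHFD1L libraries in IGF2BP3 knockout. Without clone E4 the MTHFD1L call in IGF2BP3 knockout was lost (log2 fold change 0.17, edgeR adjusted p = 0.148).

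Of the cytosolic counterparts, SHMT1, the cytosolic serine hydroxymethyltransferase, was at 33.3 to 40.3 CPM in parental DMSO and at 33.6 to 36.0 CPM in tunicamycin. MTHFD1, the trifunctional cytosolic folate enzyme, was at 216, 221, 203 and 198 CPM and then 221, 217, 204 and 204 CPM. Their log2 fold changes were -0.06 (SE 0.0638) and 0.01 (SE 0.0514) in parental cells and between -0.11 and 0.03 in the knockouts, none of them called. The tunicamycin and DMSO libraries overlapped for both genes. Whether the mitochondrial and cytosolic responses differed was not tested as a difference.

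ALDH1L2, the mitochondrial enzyme that oxidises 10-formyl folate, was rare, at 0.125 CPM per kb in parental DMSO. Its parental libraries held 0.935 to 1.32 CPM in DMSO and 0.950 to 2.54 CPM in tunicamycin. The log2 fold changes were 0.73 (SE 0.317, edgeR adjusted p = 0.13), 0.66 (0.0879) and 0.43 (0.295), and the groups overlapped. The call depended on the libraries used, since within replicate 2 the estimate was 0.94 in parental cells (edgeR adjusted p = 0.00693) and 1.07 in IGF2BP3 knockout (0.0042), while within replicate 1 it was 0.41 (0.452) and 0.13 (0.804).

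**Figure D2:**
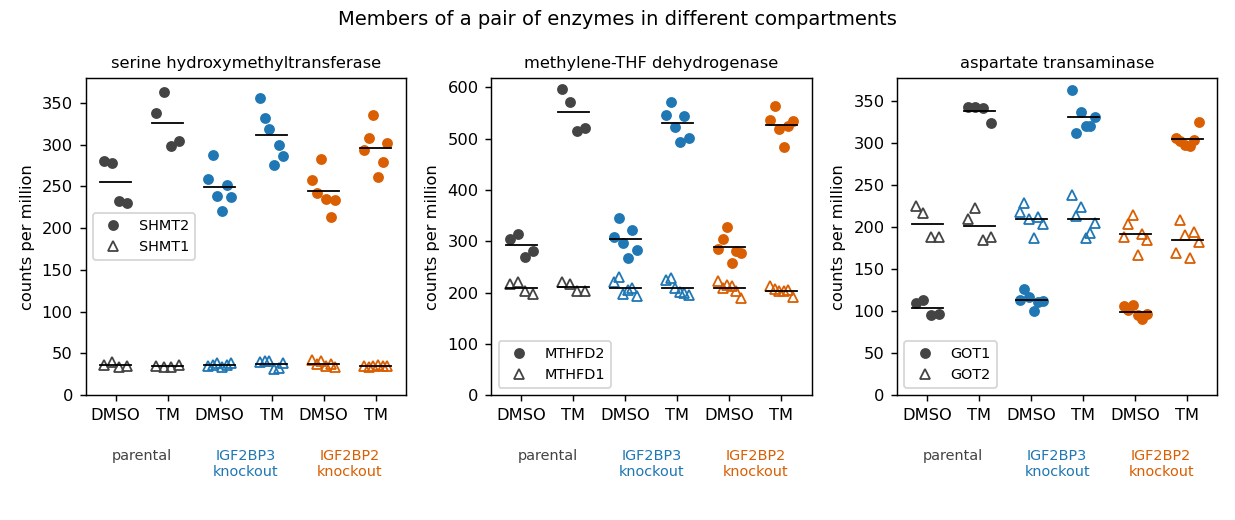
CPM of mitochondrial and cytosolic enzyme pairs in each library (points), by group on the horizontal axis, with bars at the group means. MTHFD2 moves from 270.1 to 314 CPM up to 515 to 597 CPM in parental cells, while MTHFD1 stays between 198 and 221 CPM, and GOT1 rises while GOT2 does not.

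Of the proline enzymes, PYCR1 rose in each genotype. PYCR1, the mitochondrial reductase of the last step, went from 184 to 233 CPM in parental DMSO to 247 to 299 CPM in tunicamycin, without overlap. Its log2 fold change was 0.40 (SE 0.0795, edgeR adjusted p = 0.00414), with 0.38 in each knockout. ALDH18A1, the enzyme of the entry step from glutamate, was at 178 to 201 CPM in DMSO and 172 to 205 CPM in tunicamycin, with log2 fold changes of -0.01, -0.01 and 0.00. PYCR3, the cytosolic reductase, was at 8.12 to 10.0 CPM and 7.61 to 9.02 CPM in parental cells, which overlapped. In IGF2BP2 knockout it was called lower at -0.26 (SE 0.0778, edgeR adjusted p = 0.0154), from a median of 10.9 to 9.10 CPM, and this call was lost without clone B7 (edgeR adjusted p = 0.131), without clone F6 (0.0985), and in each replicate alone (0.0615 and 0.0674).

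Of the transsulfuration enzymes, CTH, which releases cysteine from cystathionine, rose. It was at 7.68, 8.37, 7.38 and 7.89 CPM in parental DMSO and at 12.4, 13.2, 12.9 and 13.0 CPM in tunicamycin, without overlap. The log2 fold change was 0.72 (SE 0.0755, edgeR adjusted p = 7.77e-05) in parental cells, 0.82 in IGF2BP3 knockout and 0.72 in IGF2BP2 knockout.

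Of the aminotransferases, GOT1 and GPT2 were higher in each genotype and GOT2 was not called. GOT1, the cytosolic aspartate aminotransferase (chromosome 10, 99396870 to 99431569, minus strand), was at 110.1, 113, 95.1 and 96.8 CPM in parental DMSO and at 343, 343, 342 and 325 CPM in tunicamycin. Its log2 fold change was 1.71 (SE 0.0626, edgeR adjusted p = 5.29e-08), with 1.55 in IGF2BP3 and 1.62 in IGF2BP2 knockout, and no library overlapped. GOT2, its mitochondrial counterpart, was at 225, 217, 188 and 188 CPM and then 209.9, 223, 185 and 189 CPM. Its log2 fold changes were -0.02, 0.00 and -0.05, and the groups overlapped. On the scale of CPM per kb, GOT1 was below GOT2 in parental DMSO (30.8 against 54.3) and above it in tunicamycin (100.4 against 53.6). In this pair the enzyme that rose was the cytosolic one, whereas among the one-carbon enzymes those that rose were mitochondrial. GPT2, the mitochondrial alanine aminotransferase, was at 42.4, 48.3, 37.2 and 41.4 CPM in DMSO and 102, 112, 102 and 104 CPM in tunicamycin, and its log2 fold changes were 1.32, 1.21 and 1.19.

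GLUL, glutamine synthetase, fell in all 3 genotypes. Its parental libraries were at 171, 172, 158 and 156 CPM in DMSO and at 137, 149.9, 128 and 134 CPM in tunicamycin, so that each tunicamycin library was lower. The log2 fold change was -0.25 (SE 0.0553, edgeR adjusted p = 0.0071) in parental cells, -0.23 (0.00493) in IGF2BP3 knockout, where the groups overlapped, and -0.30 (0.000254) in IGF2BP2 knockout. Leaving out replicate 1 of the first parental sample ended the parental call (edgeR adjusted p = 0.058) and leaving out clone D12 the IGF2BP3 knockout call (edgeR adjusted p = 0.0529). ASS1, argininosuccinate synthase, was at 25.5 to 30.5 CPM and 25.7 to 33.01 CPM in parental cells. Its log2 fold changes were 0.08, 0.13 and 0.18, of which only that of IGF2BP2 knockout was called (edgeR adjusted p = 0.0415). It was lost in 7 of 13 other fits, among them those without clone B7 (0.157), without clone G6 (0.209), without the G6 control libraries (0.216) and DESeq2 (0.0574).

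The 4 chosen transporters of the SLC7 and SLC3 families, SLC7A1, SLC7A5, SLC7A11 and SLC3A2, rose in each genotype. SLC7A11, the cystine and glutamate exchanger xCT, was at 92.1, 96.7, 93.4 and 98.3 CPM in parental DMSO and at 397, 306, 449 and 401 CPM in tunicamycin, with no overlap. The log2 fold change was 2.03 (SE 0.105, edgeR adjusted p = 6.25e-07), with 1.99 in IGF2BP3 and 2.11 in IGF2BP2 knockout. SLC3A2, the heavy chain that SLC7A5 and SLC7A11 need to reach the membrane, was at 474, 477, 391 and 399 CPM and then 1079, 1142, 962 and 959 CPM. Its log2 fold changes were 1.25, 1.08 and 1.14. SLC7A5, the large neutral amino acid exchanger LAT1, was at 1168, 1188, 1017 and 1050.1 CPM and then 2129, 2227, 1863 and 1926 CPM, with log2 fold changes of 0.88, 0.80 and 0.79. SLC7A1, the cationic amino acid transporter CAT1, was at 291, 292, 267 and 264 CPM and then 702, 711, 653 and 634 CPM, with log2 fold changes of 1.28, 1.29 and 1.28. Per kb of exon, SLC7A5 was the most abundant of the 33 genes in parental DMSO at 233 CPM per kb.

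The 4 chosen transporters of the SLC38, SLC6 and SLC43 families, SLC38A1, SLC38A2, SLC6A9 and SLC43A1, also rose in each genotype. SLC38A2, the sodium-coupled neutral amino acid transporter SNAT2 (chromosome 12, 46358189 to 46372867, minus strand), was at 975, 1069.9, 966 and 982 CPM in parental DMSO and at 4037, 3639, 3949 and 3732 CPM in tunicamycin. The groups were far apart, with a log2 fold change of 1.95 (SE 0.0596, edgeR adjusted p = 1.74e-08), and 1.93 and 2.00 in the knockouts. In CPM per kb it went from 151 to 581 and was above SLC7A5 in tunicamycin, at 429. SLC38A1, the related SNAT1, was at 502, 506, 496 and 495 CPM and then 776, 638, 794 and 733 CPM, with smaller log2 fold changes of 0.56, 0.51 and 0.60. SLC6A9, the glycine transporter GLYT1, was at 5.12, 5.45, 4.73 and 6.03 CPM and then 23.1, 23.2, 25.0 and 27.4 CPM. Its log2 fold changes were 2.22 (SE 0.0934, edgeR adjusted p = 1.49e-07), 2.17 and 2.08, the largest among the transporters in parental cells. SLC43A1, the facilitated large neutral amino acid transporter LAT3, was at 2.10, 2.24, 1.69 and 1.71 CPM and then 5.54, 5.41, 5.98 and 5.42 CPM. Its log2 fold changes were 1.53, 1.30 and 1.15, and in IGF2BP2 knockout the treatments overlapped (1.41 to 4.09 CPM against 3.40 to 6.50 CPM).

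In the SLC1 family the neutral amino acid exchangers SLC1A4 and SLC1A5 rose in each genotype. SLC1A4, the exchanger ASCT1, was at 4.83, 6.22, 5.69 and 5.19 CPM in parental DMSO and at 20.2, 20.5, 19.5 and 17.9 CPM in tunicamycin. Its log2 fold changes were 1.83 (SE 0.0959, edgeR adjusted p = 6.65e-07), 2.01 and 1.79. SLC1A5, the glutamine exchanger ASCT2, was at 204, 200.2, 179.9 and 185 CPM and then 399, 406, 349.7 and 357 CPM, with log2 fold changes of 0.98, 0.86 and 0.85. No library of either gene overlapped between treatments. SLC1A1, the glutamate transporter EAAT3, had log2 fold changes of -0.04 (SE 0.193), 0.05 and -0.15, none of them called. SLC1A3, the glutamate transporter EAAT1, was called lower in IGF2BP3 knockout at -0.41 (SE 0.0714, edgeR adjusted p = 0.000396) and in IGF2BP2 knockout at -0.35 (0.0156), and was at -0.24 (0.208) in parental cells. The IGF2BP2 call was lost without clone B7 (0.0593), without clone G6 (0.0893), without the G6 control libraries (0.0719) and within replicate 1 (0.178).

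Other genes of the same field were taken from lists of 35 enzymes and 23 transporters. Of the 35 further enzymes, 31 were tested in parental cells and 5 were higher and 3 lower (median log2 fold change 0.05), which is near the 25.9% called over all genes. CHAC1, which degrades glutathione, rose from 2.33 to 101.6 CPM (log2 fold change 5.44, edgeR adjusted p = 1.67e-08). GCLC, the catalytic subunit of glutathione's first enzyme, rose by 0.69, and MTRR, which reactivates methionine synthase, by 0.34. MAT2A, which makes S-adenosylmethionine, fell from 422 to 307 CPM (log2 fold change -0.46, edgeR adjusted p = 0.00425), MPST was at -0.25 and MTFMT at -0.22. Of the 23 further amino acid transporters, 20 were tested and 2 were higher and 6 lower (median -0.07), beside 12.1% higher and 13.8% lower over all genes. SLC38A9, a lysosomal arginine sensor, was at 0.51 and SLC25A38, a mitochondrial glycine carrier, at 0.21, while SLC16A10, SLC36A1, SLC25A22 and SLC38A10 were at -0.43, -0.41, -0.35 and -0.32. In IGF2BP3 knockout 6 enzymes were higher and 3 lower and 2 transporters higher and 7 lower, and in IGF2BP2 knockout 7 and 6 enzymes and 2 and 8 transporters, where 32% and 38.2% of all genes were called.

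The response of the 21 raised genes was seen in every line. The ratio of tunicamycin to DMSO, taken on the log2 scale of mean CPM with 0.5 CPM added, was above 0 for 21 of 21 genes in each of the 8 lines. The median over the 21 genes was 1.24 and 1.26 in parental samples 1 and 2, 1.21, 1.13 and 0.95 in IGF2BP3 clones A3, D12 and E4, and 0.92, 1.08 and 1.17 in IGF2BP2 clones B7, F6 and G6. The 21 genes also kept their calls when only replicate 1 or only replicate 2 libraries were fitted, in each genotype. They were picked by their calls in these same libraries. That choice favours ratios above 0 and kept calls, so neither is separate support for the response.

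**Figure D3:**
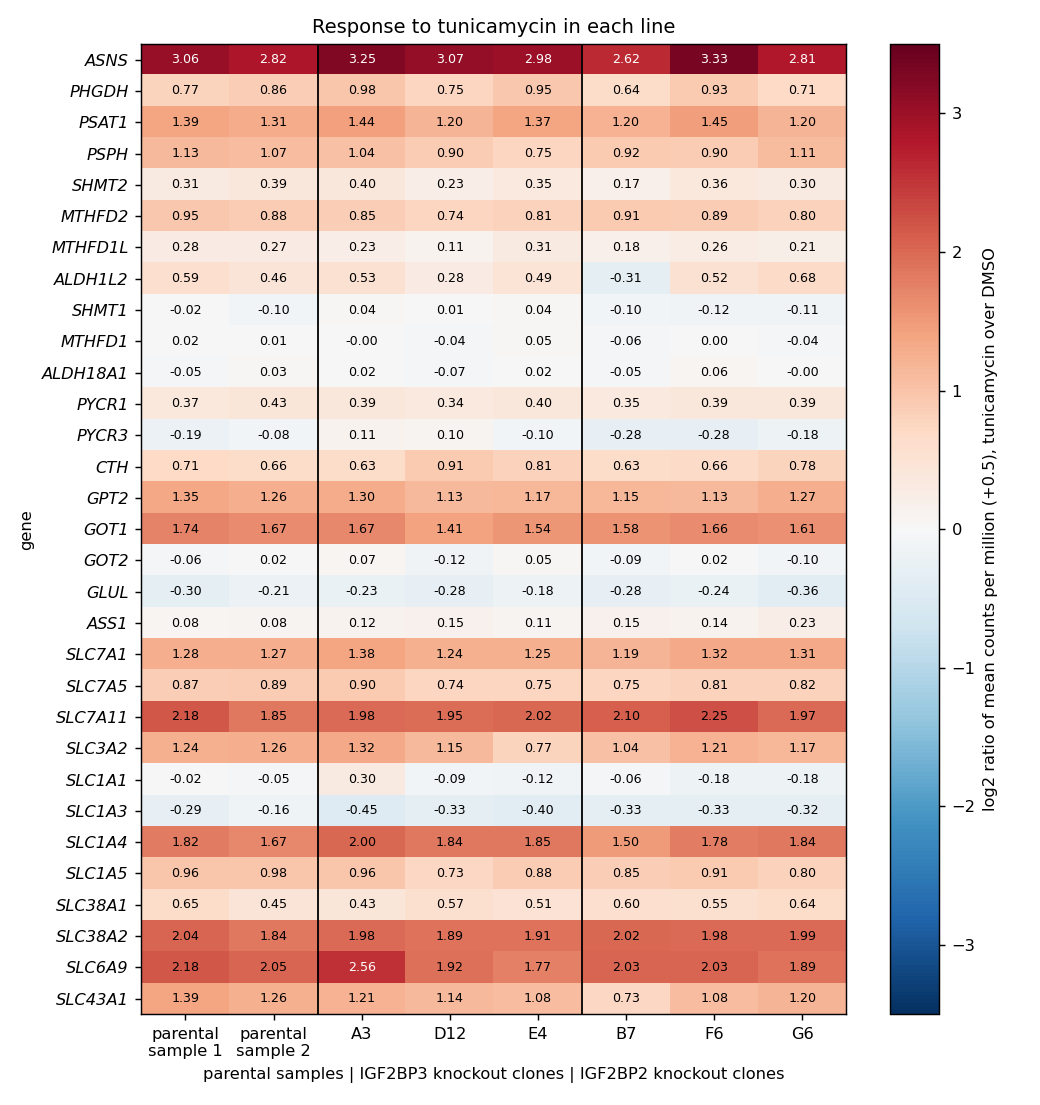
Log2 ratio of tunicamycin to DMSO (mean CPM plus 0.5) for each tested gene (rows) in each of the 8 lines (columns), in colour. The 21 raised genes are above 0 in all 8 lines, with ASNS between 2.62 and 3.33, and GLUL and SLC1A3 are below 0 in all 8.

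No gene of the 33 had a response that was called different between genotypes. The difference in response between IGF2BP3 knockout and parental cells, between IGF2BP2 knockout and parental cells, and between the knockouts was called for 0 of 31 genes by edgeR (0, 0 and 1 at an unadjusted p under 0.05) and for 0 by DESeq2, and for 0.0% of all genes tested in each of the 3 comparisons. The estimates lay between -0.22 (SLC43A1) and 0.23 (ASNS) on the log2 scale for IGF2BP3 knockout. Their SEs ran from 0.068 to 0.442, with a median of 0.108, so the median SE need not be that of the genes named. For IGF2BP2 knockout the estimates lay between -0.38 (SLC43A1) and 0.09 (ASS1), with SEs of 0.063 to 0.462 and a median SE of 0.103. Between the knockouts they lay between -0.11 (SLC7A11) and 0.37 (ASNS, SE 0.337), with SEs of 0.056 to 0.425 and a median SE of 0.094. The 1 gene at an unadjusted p under 0.05 was PYCR3, at 0.31 (SE 0.117) between the knockouts with an edgeR adjusted p of 1.00. Of the 21 raised genes, the estimate was below 0 in 16 for IGF2BP3 and in 17 for IGF2BP2 knockout. These comparisons share the parental libraries and the genes may vary together, so the counts are not a test. The median estimate was -0.017 and -0.065 over the 31 tested genes, and 0.0084 and -0.0022 over all genes.

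Within a genotype the response was not called different among clones either, for 0 of 31 genes by edgeR and by DESeq2 in each knockout, with 2 and 0 at an unadjusted p under 0.05 and 0.0% of all genes called in each. The 2 were SLC6A9, with log2 ratios of 2.56 in A3, 1.92 in D12 and 1.77 in E4 (unadjusted p = 0.000466), and SLC3A2, with 1.32, 1.15 and 0.77 (unadjusted p = 0.025). Both had an edgeR adjusted p of 1.00. For SLC6A9 the A3 clone was low in DMSO, at 3.84 and 3.62 CPM, and for SLC3A2 the E4 clone was low in tunicamycin, at 731 and 655 CPM against 908 to 1174 CPM in the others.

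Knockout and parental cells differed in 2 of the 31 genes, both glutamate transporters of the SLC1 family and both in IGF2BP3 knockout in DMSO, where 1.61% of all genes were called (0.515% higher and 1.1% lower). SLC1A1 (chromosome 9, 4490444 to 4587469, plus strand) was at 7.51, 7.28, 5.12 and 5.54 CPM in parental DMSO. In IGF2BP3 knockout it was at 4.32 and 3.93 CPM in clone A3, 3.33 and 2.80 CPM in D12, and 2.47 and 3.04 CPM in E4. Every knockout library was below every parental one, and the log2 fold change was -0.94 (SE 0.165, edgeR adjusted p = 0.0109). SLC1A3 (chromosome 5, 36606355 to 36688334, plus strand) moved the other way, from 6.08, 5.77, 6.90 and 6.42 CPM in parental DMSO to 11.1 and 9.62 CPM in A3, 11.2 and 11.1 CPM in D12, and 17.3 and 16.4 CPM in E4. Every knockout library was above every parental one, with a log2 fold change of 1.02 (SE 0.165, edgeR adjusted p = 0.00626).

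These calls rested on 6 libraries of 3 clones set against 4 libraries of 2 samples. With the counts summed per line they were lost, at an edgeR adjusted p of 0.0661 for SLC1A1 and 0.0827 for SLC1A3, and with unchanged log2 fold changes of -0.96 and 1.03. Within replicate 1 they were -1.14 (edgeR adjusted p = 0.0405) and 1.16 (0.0337), and within replicate 2 they were -0.71 (0.407) and 0.89 (0.314). The SLC1A1 call was also lost with all 32 libraries in 1 fit (0.118) and without replicate 1 of parental sample 1 (0.0593) or 2 (0.0537). In both genes the clones of 1 guide, A3 and E4, were not closer to each other than to D12.

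**Figure D4:**
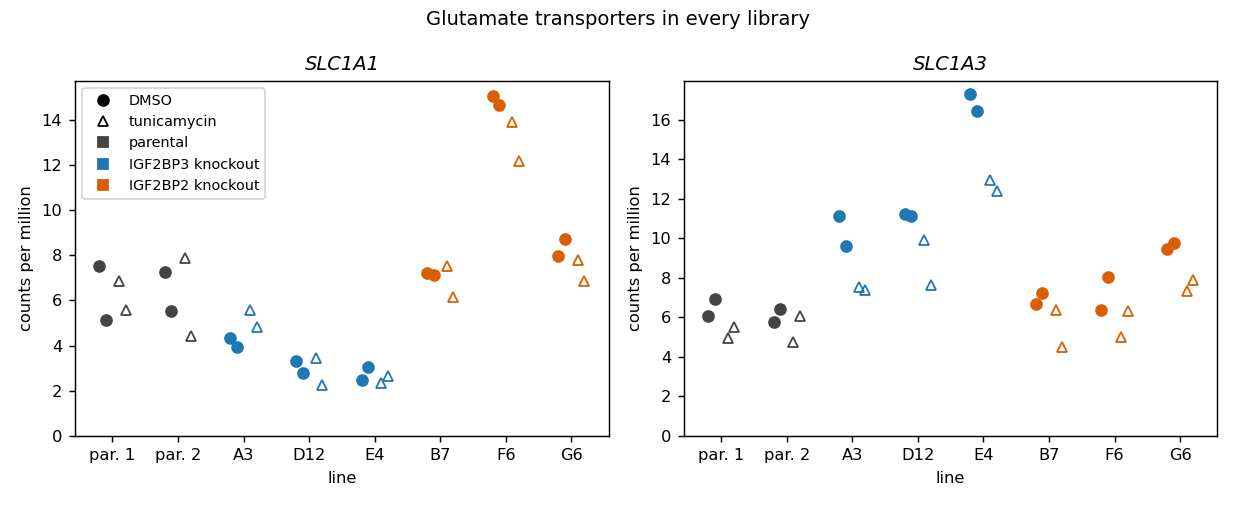
CPM of SLC1A1 and SLC1A3 in each of the 32 libraries (points), by line on the horizontal axis and by genotype in colour. Filled circles are DMSO and open triangles are tunicamycin. In DMSO the IGF2BP3 knockout clones sit at 2.47 to 4.32 CPM for SLC1A1, below the parental 5.12 to 7.51 CPM, and at 9.62 to 17.3 CPM for SLC1A3, above the parental 5.77 to 6.90 CPM.

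In tunicamycin no gene of the 33 was called in IGF2BP3 knockout against parental cells by edgeR (7 at an unadjusted p under 0.05, 0.718% of all genes called, 0.116% higher and 0.602% lower), and DESeq2 called 1, SLC1A3. SLC1A3 was at 7.39, 8.78 and 12.9 CPM (lowest, median and highest) against 4.93, 4.75, 5.48 and 6.04 CPM in parental cells, without overlap, with a log2 fold change of 0.86 (SE 0.183, edgeR adjusted p = 0.0558). SLC1A1 was at 2.24, 3.05 and 5.57 CPM against 6.84, 7.88, 5.57 and 4.41 CPM, which overlapped, at -0.81 (SE 0.257, edgeR adjusted p = 0.253). Without clone A3 both were called (edgeR adjusted p = 0.0177 for SLC1A3 and 0.0198 for SLC1A1). PHGDH was lower in the mean of IGF2BP3 knockout without being called, at -0.37 in DMSO (edgeR adjusted p = 0.204) and -0.30 in tunicamycin (0.243). In DMSO it was called without clone D12 (edgeR adjusted p = 0.0464) and without a filter on low counts (0.00134).

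In IGF2BP2 knockout against parental cells edgeR called 0 of the 31 genes in DMSO and 0 in tunicamycin, DESeq2 called 0 in each, and 2 and 6 were at an unadjusted p under 0.05. The shares of all genes called were 0.0137% and 0.00694%. SLC1A1 was at 7.11, 8.34 and 15.1 CPM in DMSO, with clone F6 at 15.1 and 14.7 CPM, and its log2 fold change of 0.67 was not called (edgeR adjusted p = 0.983). Between the knockouts 1 of the 31 genes was called in each treatment. SLC1A1 was lower in IGF2BP3 than in IGF2BP2 knockout by a log2 fold change of -1.61 in DMSO (SE 0.218, edgeR adjusted p = 0.00534, where 0.589% of all genes were called, 0.26% higher and 0.33% lower) and -1.36 in tunicamycin (SE 0.259, edgeR adjusted p = 0.0322, 0.391% called, 0.121% higher and 0.27% lower). The DMSO call was lost with the counts summed per line (0.432) and within each replicate (0.393 and 0.284). The tunicamycin call was lost in the same fits (0.39, 0.292 and 0.905) and without clones B7 (0.0639), F6 (0.0524), D12 (0.125) or E4 (0.177). Without F6 the log2 fold change in tunicamycin was -1.01. In DMSO the count of called genes was 2 without clone F6 and 3 without clone G6.

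Clones of 1 genotype differed in level for several genes that rose with tunicamycin and for the glutamate transporters SLC1A1 and SLC1A3. Among the IGF2BP3 clones 7 of 31 genes differed, against 7.05% of all genes, and among the IGF2BP2 clones 12, against 24.6%, while between the parental samples 0 differed by edgeR or by DESeq2 (0 at an unadjusted p under 0.05, 0.0% of all genes). PHGDH, PSAT1, GPT2, ASS1, SLC1A1, SLC1A3 and SLC38A2 differed among the clones of each knockout, and PYCR3, GOT2, SLC7A11, SLC1A4 and SLC43A1 among the IGF2BP2 clones. From replicate 2 alone 16 and 21 genes were called in IGF2BP3 and IGF2BP2 clones, and from replicate 1 alone 12 and 9.

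SLC1A1 spread most, with line means over both treatments of 6.26 and 6.28 CPM in the parental samples, 4.66, 2.96 and 2.62 CPM in A3, D12 and E4, and 7.0, 14.0 and 7.83 CPM in B7, F6 and G6. The highest and lowest lines, F6 and E4, were 5.32-fold apart (edgeR adjusted p = 0.0107 among IGF2BP3 clones and 3.52e-06 among IGF2BP2 clones). SLC1A3 was at 5.85 and 5.75 CPM in the parental samples, 8.92, 9.99 and 14.8 CPM in A3, D12 and E4, and 6.20, 6.44 and 8.61 CPM in B7, F6 and G6 (edgeR adjusted p = 0.000161 and 0.0176). Clone E4 was thus lowest in SLC1A1 and highest in SLC1A3.

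E4 and F6 were also the lowest lines of their genotypes in PHGDH, PSAT1 and GPT2. PHGDH was at 148 and 158 CPM in the parental samples, 118, 140.1 and 109.9 CPM in A3, D12 and E4, and 151, 115 and 165 CPM in B7, F6 and G6 (edgeR adjusted p = 0.0387 and 0.00104). PSAT1 was at 335 and 343 CPM, then 321, 352 and 284 CPM, and then 357, 305 and 349 CPM in the same order (0.0364 and 0.0123). GPT2 was likewise lowest in E4 at 59.6 CPM and in F6 at 59.7 CPM, against 63.5 to 78.2 CPM in the other lines (0.0421 and 0.00188).

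Of the genes that differed among clones, no transporter was lowest in both E4 and F6 within their genotypes, and neither was ASS1. Several were lowest in E4 or in F6 alone. SLC38A2 was lowest in E4 at 1723 CPM, against 2160.4 and 2333 CPM in A3 and D12, but highest of all lines in F6 at 2564 CPM (edgeR adjusted p = 0.000407 and 6.51e-05). SLC1A4 was lowest in F6 at 8.74 CPM, against 15.03 CPM in B7 and 13.1 CPM in G6 (8.44e-05). SLC43A1 was likewise lowest in F6 at 2.69 CPM, against 4.84 and 4.06 CPM (0.0048). ASS1 was at 36.2 CPM in F6, at 21.1 CPM in E4 and at 23.7 to 30.4 CPM in the other lines (0.000628 and 0.000169).

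**Figure D5:**
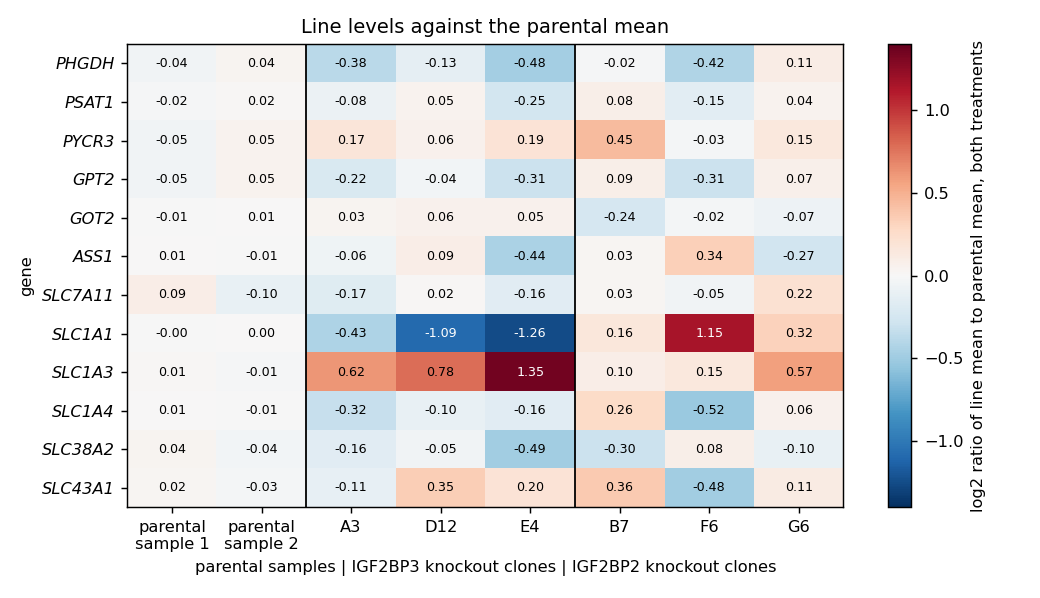
Mean level of each gene that differed among clones, in each of the 8 lines, as the log2 ratio to the mean of the parental samples over both treatments. SLC1A1 runs from -1.26 in E4 to 1.15 in F6, and SLC1A3 reaches 1.35 in E4.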

How the data were processed

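The authors deposited 1 table of gene counts, with 60660 rows and 32 libraries; per the submitters' processing notes, reads were aligned with STAR 2.7.5c to hg38. The counting tool, its strand setting and the annotation are not given in the sources used here, so reads of overlapping genes may be shared. Identifiers were paired with symbols and coordinates through GENCODE 29 (GRCh38).

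The 33 genes, the other lists and the tests were chosen with earlier results of these data known. All 33 are named by role; of the other lists, at most 4 genes per direction with the largest called change in parental cells and a mean count of at least 100 are named, and 1 of these is not reported here. Libraries were grouped by their titles. Counts were filtered with filterByExpr, scaled by TMM and tested with edgeR 4.0.16 (limma 3.58.1, R 4.3.3; glmQLFit and glmQLFTest), each comparison on its own groups, with Benjamini-Hochberg adjustment over all genes and a threshold of 0.05. Tests among clones included treatment. Alternatives were DESeq2 1.42.0, its size factors in edgeR, other filters, the replicate number as a term, counts summed per line, all libraries in 1 fit, and leaving out clones or replicates. Scripts were tested on simulated data. Figures and summaries used Python 3.11.15 with pandas 2.3.3 and matplotlib 3.10.9. Rows without any count numbered 22333. Duplicate deposits were checked by chi-square per degree of freedom between replicates (4.59 to 25.2), above sampling noise in every pair.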

Additional observations from a re-analysis of the deposited data

Results flagged for a closer look

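In 7 of 186 checks of a gene's CPM within a group of 4 or 6 libraries, the gap between 1 library and the nearest other was large for the range of its group. The cut-off is set to flag about 1 in 20 groups of independent values. The checks share libraries, and same-numbered libraries vary together, so that rate need not hold here. Whether the number differs from chance was not tested. ALDH1L2 was at 0.41 CPM in replicate 1 of clone G6 in DMSO, against 0.99 to 1.26 CPM in the other IGF2BP2 knockout libraries. CTH was at 11.9 CPM in replicate 1 of clone D12 in tunicamycin, against 14.4 to 15.8 CPM in the other IGF2BP3 knockout libraries. GPT2 was at 112 CPM in replicate 1 of parental sample 2 in tunicamycin, against 102 to 104 CPM. GOT1 was at 325 CPM in replicate 2 of parental sample 2 in tunicamycin, against 342 to 343 CPM, and at 325 CPM in replicate 2 of clone G6 in tunicamycin, against 297 to 306 CPM. SLC1A5 was at 216 CPM in replicate 1 of clone G6 in DMSO, against 174 to 188 CPM. SLC38A2 was at 1069.9 CPM in replicate 1 of parental sample 2 in DMSO, against 966 to 982 CPM.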

How the results depend on the processing

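Of 950 alternative fits of the 74 single-gene calls, 915 kept the call, 35 lost it and 0 turned its direction; the lost ones are given or counted beside the genes in the report, and their cause was not tested. The counts of higher genes stayed within 21 to 22, 20 to 23 and 21 to 22 in parental, IGF2BP3 and IGF2BP2 knockout cells, and the counts of lower genes were 0 to 1, 1 to 2 and 1 to 3 when 1 library or clone was left out. For IGF2BP3 knockout against parental cells in DMSO (2 genes) the count was 0 with counts summed per line, 1 with all 32 libraries, 0 within replicate 2 and 1 to 3 when leaving out 1 library or clone. In tunicamycin (0 genes) it was 1 with DESeq2, without a filter and with all 32 libraries, and up to 2 when leaving out a clone. For IGF2BP3 against IGF2BP2 knockout in DMSO (1 gene) it was 2 with DESeq2, without a filter and with all 32 libraries, 0 with counts summed per line and within replicate 1 or 2, 3 without the G6 controls, and 1 to 3 when leaving out a clone. In tunicamycin (1 gene) it was 2 with DESeq2 and with all 32 libraries, 0 with counts summed per line and within each replicate, and 0 to 1 when leaving out a clone. Among IGF2BP3 clones (7 genes) it was 12 to 16 and among IGF2BP2 clones (12 genes) 9 to 21 when leaving out a replicate. The counts of IGF2BP2 knockout against parental cells, of the differences in response and of the parental samples stayed 0 in the alternatives run. The response among clones without a replicate had no residual degrees of freedom and was not run.

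Replicate numbers are shared by all groups, and no label says what they mark. The deviations of same-numbered libraries correlated above 0.1 in 119 of 120 pairs of line and treatment (lowest 0.0878), which misses the rule that every pair does, so the numbers were not taken as pairs. The second principal component (15.3% of variance) separated the numbers. With a replicate block the genes called in parental tunicamycin went from 3837 to 6030 over the whole table, and among the 33 genes the block gave 2 for IGF2BP3 knockout against parental cells in tunicamycin (PHGDH, edgeR adjusted p = 0.036, and SLC1A3, 0.0226), 2 for IGF2BP3 against IGF2BP2 knockout in DMSO, 12 among IGF2BP3 clones and 20 among IGF2BP2 clones. ALDH1L2 in parental tunicamycin was called higher under the block (edgeR adjusted p = 0.0367). CBS and BCAT1 had too few counts to be tested.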
